A study of Homo sapiens with 30 samples.

Results

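The genes described here encode the chains of human collagens: every protein-coding gene of the GENCODE v29 annotation whose symbol reads COL, a number, A and a number. There are 44 of them, and all 44 were found by Ensembl gene identifier in the deposited table of estimated counts, which has 60675 gene entries. A mean of at least 1 CPM (a gene's counts scaled by the size of its library) was reached in some group by 27 chains, and these are described by collagen class. The other 17 stayed below that level. Of the 27, 8 encode fibrillar collagens (of 11 in the annotation), 5 basement membrane collagen IV (of 6), 4 the fibril-associated collagens known as FACITs (of 10) and 10 other types (of 17).

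SW1783, an established human astrocytoma cell line, was treated for 24 h with an extract of a traditional herbal formula prepared in 70% ethanol, or with the solvent dimethyl sulfoxide (DMSO) as vehicle. Doses were 20, 100 and 500 µg/mL, with 3 libraries per dose of Soshiho-tang and of Yijin-tang, 2 per dose of Okbyeongpung-san, 1 per dose of Soyo-san, and 3 of vehicle. The vehicle label gives 0.1% DMSO while the series' design text gives 2%, and the sources used here do not settle which applied or whether extract-treated wells held the same amount. Titles carry a batch letter: the vehicle, Soshiho-tang and Yijin-tang libraries are of batch E, Soyo-san of batch D, and Okbyeongpung-san has replicate 2 in batch E and replicate 3 in batch D. In the descriptions the library names of the vehicle group begin with a prefix that no extract library has. The names of Okbyeongpung-san and Soyo-san libraries share another prefix, and those of Soshiho-tang and Yijin-tang share yet another. What the prefixes stand for is not stated. Prefix and treatment therefore cannot be told apart in any comparison with vehicle, or of Okbyeongpung-san with Soshiho-tang. For Soyo-san against vehicle the same holds of the batch letter. A comparison of 500 with 20 µg/mL of the same extract does not use the vehicle libraries and is given first for that reason. The labels do not say that libraries came from separate cultures, so p-values reflect only how far these libraries scatter, and that scatter may be technical. All results concern a single cell line under culture conditions.

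Collagens are secreted proteins built of 3 chains wound into a helix, and a given type is made from 1 gene or from several. Fibrillar collagens (types I, II, III, V, XI, XXIV and XXVII) form the load-bearing fibrils of connective tissue, with type V and type XI chains found inside fibrils of type I or type II. Collagen IV forms the network of basement membranes, FACITs attach to the surface of fibrils, and the remaining types include the beaded filaments of type VI, the anchoring fibrils of type VII, the networks of type VIII and chains that span the cell membrane. Normal brain tissue holds little fibrillar collagen outside its vessels and meninges, whereas gliomas and cultured mesenchymal cells often express it.

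The 30 libraries held 23868032 to 33055058 estimated counts (median 27394395). Mitochondrially encoded genes took 10.5 to 10.7% of each vehicle library, 6.37 to 9.03% at 20 µg/mL and 6.93 to 7.79% at 500 µg/mL Soshiho-tang. With Yijin-tang they took 7.15 to 9.59% at 20 and 6.70 to 10.6% at 500 µg/mL. The highest of these, replicate 3 at 500 µg/mL, lay within the vehicle range. With Okbyeongpung-san they took 8.11 to 8.36% at 20 and 5.68 to 6.80% at 500 µg/mL. The astrocyte markers GFAP, S100B, AQP4 and ALDH1L1 stayed at or below 0.252 CPM in every library, and AQP4 was at 0 in all vehicle libraries, while SLC1A3 (32.7 CPM) and VIM (5065 CPM) were present in vehicle. The astroglial sum, nearly all VIM, was 5070 to 5151 CPM in vehicle, 4939 to 5617 at 20 and 4296 to 4597 at 500 µg/mL Soshiho-tang, and 4994 to 5236 and 4094 to 4647 at these doses of Yijin-tang. SLC1A3 and VIM fell at 500 µg/mL of both extracts, against 20 µg/mL and against vehicle, and neither was called with Okbyeongpung-san. All 8 mesenchymal markers examined were detected, among them THY1 at 523 CPM and PDGFRB at 75.5 CPM. Their summed level was 814 to 880 CPM in vehicle, 769 to 920 at 20 µg/mL and 603 to 668 at 500 µg/mL Soshiho-tang. For Yijin-tang the sum was 833 to 873 CPM at 20 and 731 to 854 at 500 µg/mL, and for Okbyeongpung-san 762 to 873 and 564 to 681. In the test of 500 against 20 µg/mL described below, 7 of the 8 fell and 1 rose with Soshiho-tang, where 14.2% of all genes fell and 14.6% rose. With Yijin-tang 3 of the 8 fell, where 2.94% of all genes fell, and with Okbyeongpung-san 5 fell, where 5.1% did. Of the endothelial markers PECAM1 was at 0.797 and CDH5 at 0.0284 CPM in vehicle, and of the epithelial markers EPCAM was at 0.0144 and CDH1 at 0.0284. KRT18, at 132 CPM, made up nearly all of the epithelial sum, which was 128 to 138 CPM in vehicle, 136 to 147 at 20 and 49.1 to 52.7 at 500 µg/mL Soshiho-tang, and 63.1 to 67.1 at 500 µg/mL Okbyeongpung-san. CD68, at 185 CPM in vehicle, made up nearly all of the leukocyte marker sum. The sum was 185 to 210 CPM in vehicle, 135 to 192 at 20 and 198 to 229 at 500 µg/mL Soshiho-tang. Of the 2 leukocyte markers tested there, 1 fell and 1 rose between 20 and 500 µg/mL. Against vehicle 1 fell at 500 µg/mL, where 21.1% of all genes fell. The part of these markers in the collagen results was not tested, and in bulk RNA fewer cells of a type cannot be told apart from less RNA per cell.

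Sequence upstream of 4 chains is shown for what the counts show of them below. COL4A1 and COL4A2 lie head to head on chromosome 13 and share an upstream interval, and both fell between 20 and 500 µg/mL Soshiho-tang. COL5A1 and COL7A1 moved in opposite directions between 20 and 500 µg/mL Okbyeongpung-san. The calls of COL4A2, COL5A1 and COL7A1 were each lost in some fits that left out a library, as given below. The sequences are from RefSeq on GRCh38.p14, written 5′ to 3′ on the stated strand, and capitals mark each match, on either strand, to the CCAAT box, to the GC box with the letters GGGCGG, to the TATA box with the letters TATAAA, or to the AP-1 site with the letters TGACTCA.
COL4A1 to COL4A2, the 126 bases between the RefSeq start sites, chr13:110307158-110307283, plus strand: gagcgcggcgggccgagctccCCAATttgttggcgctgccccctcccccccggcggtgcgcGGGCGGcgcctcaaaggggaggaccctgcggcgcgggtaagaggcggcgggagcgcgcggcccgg
COL5A1, the 250 bases before the start, chr9:134641553-134641802, plus strand: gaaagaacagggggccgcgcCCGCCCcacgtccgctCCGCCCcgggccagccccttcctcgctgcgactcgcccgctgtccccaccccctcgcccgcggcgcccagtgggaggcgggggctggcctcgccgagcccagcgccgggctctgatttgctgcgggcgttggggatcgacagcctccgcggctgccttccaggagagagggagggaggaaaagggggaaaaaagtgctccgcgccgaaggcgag
COL7A1, the 250 bases before the start, chr3:48595330-48595579, minus strand: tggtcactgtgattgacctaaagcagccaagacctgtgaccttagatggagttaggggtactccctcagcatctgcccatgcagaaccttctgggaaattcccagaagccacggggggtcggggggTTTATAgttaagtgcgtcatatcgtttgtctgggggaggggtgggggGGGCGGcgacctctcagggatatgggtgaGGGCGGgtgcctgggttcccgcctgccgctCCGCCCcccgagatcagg

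The interval between COL4A1 and COL4A2 holds 1 CCAAT match and 1 GGGCGG match. The COL5A1 window holds 2 GGGCGG matches, and the COL7A1 window holds 3 of these and 1 TATAAA match. Of all 35116 RefSeq promoter windows of 250 bases, 32.0% hold CCAAT, 42.6% GGGCGG, 10.7% TATAAA and 4.2% TGACTCA. An entry was found for 32 of the 44 chains, and for 20 of the 27 that reached 1 CPM. Among those 20, CCAAT was present for 7, GGGCGG for 15, TATAAA for 5 and TGACTCA for 0. A chain was counted when any of its windows held the letters, and some chains have several windows. The shares of all windows are per single window, so the 2 kinds of figure are not directly comparable. COL1A1, COL1A2, COL3A1, COL5A2, COL6A1, COL8A1 and COL14A1 had no entry. A match describes letters only.

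In vehicle-treated cells the collagen genes followed an uneven order, with type I, V and VI chains far above the rest. Levels are compared between genes as CPM per kilobase of exons. The length used is that of all annotated exons of a gene merged, for example 19293 bases for COL4A2 and 7453 for COL5A2. The order of the genes therefore depends on that length, and the SD covers only the libraries. COL1A1 (chromosome 17, 50183289 to 50201632, minus strand), the alpha-1 chain of type I collagen, stood first at 401.8 ± 13.3 CPM per kb (SD, n = 3). COL6A1, a chain of the beaded filaments, followed at 316 ± 11.6. COL5A1 (chromosome 9, 134641774 to 134844843, plus strand), the chain that helps to start fibrils, was at 224 ± 7.29. The next, COL6A2 at 208 ± 10.3, was within 2 SD of COL5A1. COL1A2 (chromosome 7, 94394561 to 94431232, plus strand), the alpha-2 chain of type I, was at 165 ± 5.02. In CPM, COL1A1, COL5A1, COL1A2, COL6A1 and COL6A2 together made up 79.1% of the signal of the collagen chains in vehicle.

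A middle range of the vehicle order ran from COL5A2 at 42.0 ± 1.08 CPM per kb to COL4A6 at 9.59 ± 0.222. On this scale COL5A2 and COL4A2 (39.9 ± 1.40) did not differ beyond the spread of their libraries, although they stood at 313 and 770 CPM. The same held per kb for COL7A1 (18.7 ± 1.02) and COL8A1 (18.2 ± 0.431), for COL18A1 (11.5 ± 0.597) and COL4A5 (11.2 ± 0.130), and for COL6A3 (9.99 ± 0.428) and COL4A6. Between these stood COL12A1, a FACIT, at 32.9 ± 2.69 and COL4A1 at 23.2 ± 0.244. The low chains in descending order were COL16A1 at 5.82 CPM per kb, COL3A1 at 5.16, COL11A1 at 3.50, COL13A1 at 3.21, COL15A1 at 1.95, COL14A1 at 1.93, COL8A2 at 1.31, COL27A1 at 1.16 and COL21A1 at 1.08. COL17A1 (0.421), COL5A3 (0.289) and COL4A4 (0.0957) were the lowest of the 27. Type III collagen was thus a minor fibrillar component here: the per-kb ratio of COL3A1 to COL1A1 was 0.0124 to 0.0132 across the vehicle libraries.

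**Figure D1:**
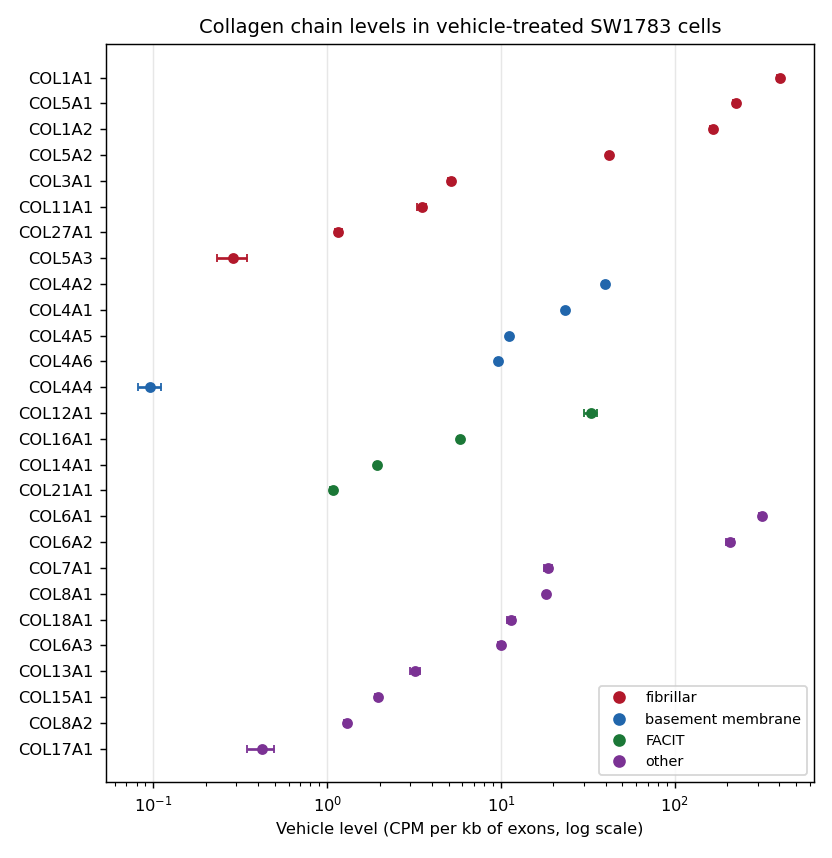
Level of the 27 collagen chains in vehicle-treated SW1783 cells, in CPM per kilobase of exons on a log axis, mean ± SD of 3 libraries, coloured by class. COL1A1, COL6A1, COL5A1, COL6A2 and COL1A2 sit above 100 and COL4A4 lies lowest at 0.0957.

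Around the threshold, COL4A4 reached 1.15 CPM in its highest group (Okbyeongpung-san at 100 µg/mL) and COL4A3 stopped at 0.883 (Yijin-tang at 500 µg/mL). The next below were COL9A2 at 0.756, COL11A2 at 0.67 and COL6A6 at 0.564. For the rest the highest group means were 0.289 CPM for COL10A1, 0.270 for COL24A1, 0.175 for COL2A1, 0.141 for COL28A1, 0.128 for COL19A1, 0.105 for COL9A3 and COL23A1, 0.0545 for COL20A1, 0.0499 for COL26A1, 0.0248 for COL22A1, 0.0192 for COL9A1 and 0.0190 for COL25A1. COL6A5 had no counts in any group. Chains of the cartilage types II and IX were all among those below 1 CPM. COL4A3, COL6A6, COL9A2 and COL11A2 had enough counts to be tested, and 1 call was made on them: COL4A3 rose in Yijin-tang at 500 µg/mL against vehicle, by 0.96 ± 0.265 (SE) log2 with an adjusted p of 0.00835.

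edgeR's quasi-likelihood test was run over all genes that passed a filter on low counts, and a gene is called when its Benjamini-Hochberg adjusted p is under 0.05. Fold changes are log2 values ± SE, higher dose minus lower dose or treated minus vehicle. The SE was derived from the test, as the absolute log2 change divided by the square root of its F statistic. Between 20 and 500 µg/mL Soshiho-tang, 19 of the 27 chains fell and 0 rose, where 14.2% of all genes tested fell and 14.6% rose. The median log2 change of the 27 was -0.36 against 0.007 over all genes. With Yijin-tang 4 chains fell and 0 rose, where 2.94% of all genes fell and 2.7% rose, and the median was -0.08. For Okbyeongpung-san 8 fell and 1 rose, where 5.1% of all genes fell and 5.21% rose, and the median was -0.04. Leaving out replicate 2 of Okbyeongpung-san at 20 µg/mL lowered its count to 4, and leaving out replicate 1 of Yijin-tang at 20 µg/mL lowered that of Yijin-tang to 2.

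Between 20 and 100 µg/mL no collagen chain was called for any extract. With Soshiho-tang 0.0711% of all genes were called in either direction and 5 chains had an unadjusted p under 0.05. With Yijin-tang the share of all genes was 0.00593% and 3 chains had an unadjusted p under 0.05. For Okbyeongpung-san 0% of all genes were called and 0 chains had such a p. DESeq2 also called 0 chains in each of these comparisons.

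**Figure D2:**
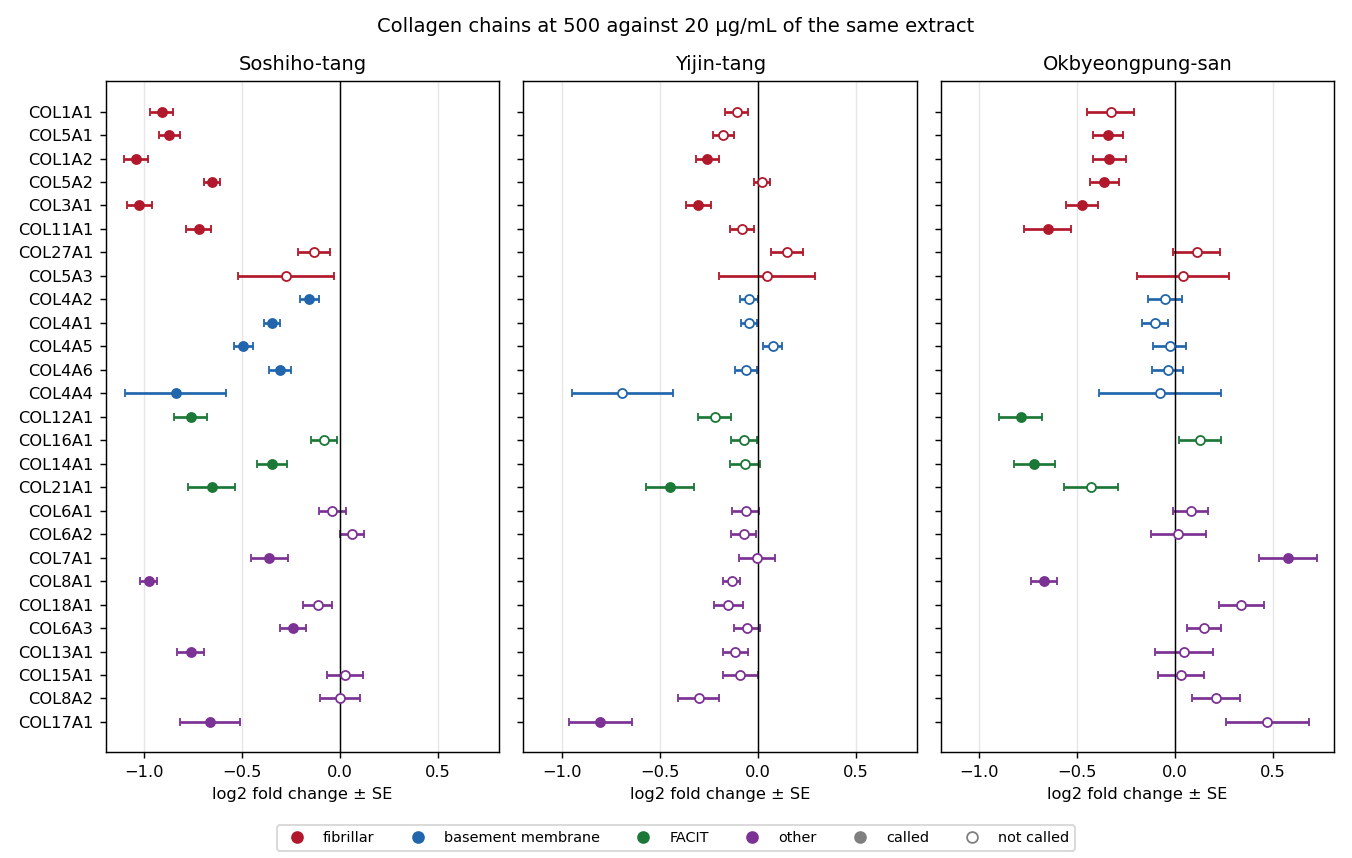
log2 fold change ± SE of the 27 collagen chains at 500 against 20 µg/mL of Soshiho-tang, Yijin-tang and Okbyeongpung-san, coloured by class, filled points being called at an adjusted p under 0.05. Soshiho-tang has 19 filled points, all below 0, and Okbyeongpung-san has 1 filled point above 0, COL7A1.

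With Soshiho-tang the fibrillar class had a median change of -0.80 log2, the lowest of the 4 class medians, and 6 of its 8 chains fell. COL1A1 stood at 4037, 4003 and 3795 CPM in vehicle, at 3256, 2973 and 3103 at 20 µg/mL, at 3290, 2874 and 3064 at 100 µg/mL and at 1779, 1556 and 1631 at 500 µg/mL Soshiho-tang. The step lay between 100 and 500 µg/mL, with no overlap of the libraries, and a smaller one lay between vehicle and 20 µg/mL. COL1A1 fell by 0.91 ± 0.0587 between 20 and 500 µg/mL (adjusted p = 1.05e-10). Its partner COL1A2 stood at 1892, 1850 and 1781 CPM in vehicle, at 1780, 1627 and 1483 at 20 µg/mL and at 801, 761 and 810.0 at 500 µg/mL. COL1A2 fell by 1.04 ± 0.0612 (adjusted p = 2.43e-11). The per-kb ratio of COL1A1 to COL1A2 was 2.42 to 2.46 in vehicle, 2.08 to 2.38 at 20 µg/mL and 2.29 to 2.52 at 500 µg/mL. The range at 500 µg/mL overlapped both others, while that at 20 µg/mL lay below vehicle.

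COL3A1, the single chain of type III collagen, held 31.0, 30.6 and 27.4 CPM at 20 µg/mL and 14.6, 14.8 and 14.4 at 500 µg/mL Soshiho-tang. It fell by 1.02 ± 0.0662 (adjusted p = 1.09e-10), beside 34.7, 36.7 and 34.0 CPM in vehicle. COL5A1 stood at 2504, 2591 and 2428 CPM in vehicle, at 2154, 2121 and 2096 at 20 µg/mL and at 1225, 1112 and 1143 at 500 µg/mL. Every 500 µg/mL library was thus below every other library of the extract, and COL5A1 fell by 0.87 ± 0.0536 (adjusted p = 4.99e-11). COL5A2, the other main type V chain, was at 308, 322 and 308 CPM in vehicle, at 332, 344 and 334 at 20 µg/mL and at 214, 204 and 223 at 500 µg/mL. It fell by 0.66 ± 0.0422 (adjusted p = 1.05e-10) from a 20 µg/mL level that stood above all vehicle libraries.

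COL11A1, a type XI chain, shared the pattern of COL5A2. Its libraries held 29.6, 32.5 and 33.4 CPM in vehicle, 41.6, 39.4 and 37.3 at 20 µg/mL and 25.0, 23.8 and 22.9 at 500 µg/mL Soshiho-tang. COL11A1 fell by 0.72 ± 0.0632 between the doses (adjusted p = 1.24e-08) and was the only chain called higher than vehicle at 20 µg/mL of this extract, by 0.31 (adjusted p = 0.00142). COL5A3 (-0.28) and COL27A1 (-0.13), both low, were not called between the doses.

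The same fibrillar chains moved less with Yijin-tang, where COL3A1 and COL1A2 were called, 2 of 8. COL3A1 held 27.8, 28.6 and 29.4 CPM at 20 µg/mL and 24.6, 24.3 and 20.7 at 500 µg/mL, a fall of 0.30 ± 0.064 (adjusted p = 0.00582). For COL1A2 the values were 1583, 1525 and 1597 CPM at 20 µg/mL and 1382, 1370 and 1192 at 500 µg/mL, a fall of 0.26 ± 0.0605 (adjusted p = 0.0137). This call was lost without replicate 3 of the higher dose or without replicate 1 or 3 of the lower dose. COL1A1, at 3017, 3163 and 3056 CPM at 20 µg/mL and 2815, 2779 and 2995 at 500 µg/mL, did not overlap between the doses, but the change of -0.11 was not called (adjusted p = 0.345). COL5A1, at -0.18, had an adjusted p of 0.0556 and was called by DESeq2 (adjusted p = 0.012).

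With Okbyeongpung-san 5 of the 8 fibrillar chains fell between 20 and 500 µg/mL, with a class median of -0.34. COL3A1 held 28.6 and 30.9 CPM at 20 µg/mL and 20.7 and 22.2 at 500 µg/mL (replicate 2, then 3), a fall of 0.48 ± 0.083 (adjusted p = 0.00632). Within batch D the log2 ratio of the doses was -0.48 and within batch E it was -0.47. For COL11A1 the levels were 38.4 and 35.5 CPM at 20 µg/mL and 26.6 and 20.6 at 500 µg/mL, a fall of 0.65 ± 0.119 (adjusted p = 0.00782). Its ratios in the batches were -0.79 and -0.53. COL5A2 (-0.36), COL5A1 (-0.34) and COL1A2 (-0.34) also fell, with adjusted p-values of 0.0116, 0.0198 and 0.0341, and each had the same sign in both batches. All 4 calls other than COL3A1 were lost without replicate 2 at 20 µg/mL, COL5A1 also without replicate 3 at 20 µg/mL and COL1A2 also without replicate 3 at 500 µg/mL.

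COL1A1 showed the batches apart. It held 3164 CPM at 20 µg/mL and 2811 at 500 µg/mL in batch E, and 3028 and 2131 in batch D. The change of -0.33 had an adjusted p of 0.114, with ratios of -0.51 in batch D and -0.17 in batch E.

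All 5 basement membrane chains fell between 20 and 500 µg/mL Soshiho-tang, by less than the main fibrillar chains except for the low COL4A4, and the class median was -0.35. COL4A1, which together with COL4A2 forms the common collagen IV network, was at 339, 346 and 342 CPM in vehicle, at 323, 333 and 308 at 20 µg/mL and at 247, 253 and 258 at 500 µg/mL. It fell by 0.35 ± 0.0405 (adjusted p = 7.28e-07). COL4A2 held 662, 704 and 673 CPM at 20 µg/mL and 606, 609 and 614 at 500 µg/mL, a fall of 0.16 (adjusted p = 0.0157) that was lost without replicate 2 of the lower dose (adjusted p = 0.0759) and without the filter on low counts (adjusted p = 0.0541). The genes start at opposite ends of the interval printed above. Their per-kb ratio, COL4A1 to COL4A2, was 0.6 to 0.639 at 20 µg/mL and 0.534 to 0.550 at 500 µg/mL, without overlap, beside 0.555 to 0.598 in vehicle.

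COL4A5 and COL4A6 are another head-to-head pair, on the X chromosome, whose chains assemble together in some basement membranes. COL4A5 was at 132, 132 and 134 CPM in vehicle, at 125, 126 and 115 at 20 µg/mL and at 84.4, 85.3 and 90.2 at 500 µg/mL Soshiho-tang, a fall of 0.49 ± 0.0509 (adjusted p = 1.39e-07). COL4A6 fell by 0.31 (adjusted p = 0.000229). COL4A4, at 0.893 to 1.52 CPM at 20 µg/mL and 0.373 to 0.842 at 500 µg/mL, fell by 0.84 ± 0.257 (adjusted p = 0.017), a call lost without replicate 1 at 20 µg/mL or replicate 2 at 500 µg/mL. No basement membrane chain was called between 20 and 500 µg/mL of Yijin-tang or Okbyeongpung-san. COL4A5 stood at 138 and 125 CPM at 20 µg/mL Okbyeongpung-san and 139 and 120.3 at 500 µg/mL, and at 133, 132 and 123 at 500 µg/mL Yijin-tang.

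Among the FACITs, COL12A1 (chromosome 6, 75084326 to 75206051, minus strand), which decorates type I fibrils, fell between 20 and 500 µg/mL with 2 extracts. It stood at 372, 428 and 432 CPM in vehicle, at 395, 397 and 371 at 20 µg/mL and at 233, 216 and 237 at 500 µg/mL Soshiho-tang, a fall of 0.76 ± 0.0853 (adjusted p = 4.3e-07). Okbyeongpung-san gave 437 and 358 CPM at 20 µg/mL and 240.5 and 221 at 500 µg/mL, a fall of 0.79 ± 0.111 (adjusted p = 0.00211) with ratios of -0.70 and -0.86 in batches D and E. With Yijin-tang the change was -0.22 and was not called (adjusted p = 0.15), although edgeR called it with no filter on low counts (adjusted p = 0.0161). Against vehicle COL12A1 was called lower at 500 µg/mL Yijin-tang, and all alternatives kept that call, at -0.42 to -0.31 log2. COL14A1, another fibril-surface collagen, held 14.4, 14.8 and 12.5 CPM at 20 µg/mL and 10.2, 10.9 and 11.7 at 500 µg/mL Soshiho-tang, a fall of 0.35 (adjusted p = 0.00146). It held 17.2 in both Okbyeongpung-san libraries at 20 µg/mL and 9.85 and 11.1 at 500 µg/mL, a fall of 0.72 ± 0.104 (adjusted p = 0.00243). COL21A1 fell by 0.66 with Soshiho-tang (adjusted p = 0.000236) and by 0.45 with Yijin-tang (adjusted p = 0.0324), the latter although its libraries overlapped between the doses and with the call lost in 3 of the leave-one-out fits. COL16A1 was not called for any extract, with 45.3 to 54.8 CPM at 20 µg/mL and 46.6 to 50.4 at 500 µg/mL Soshiho-tang.

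**Figure D3:**
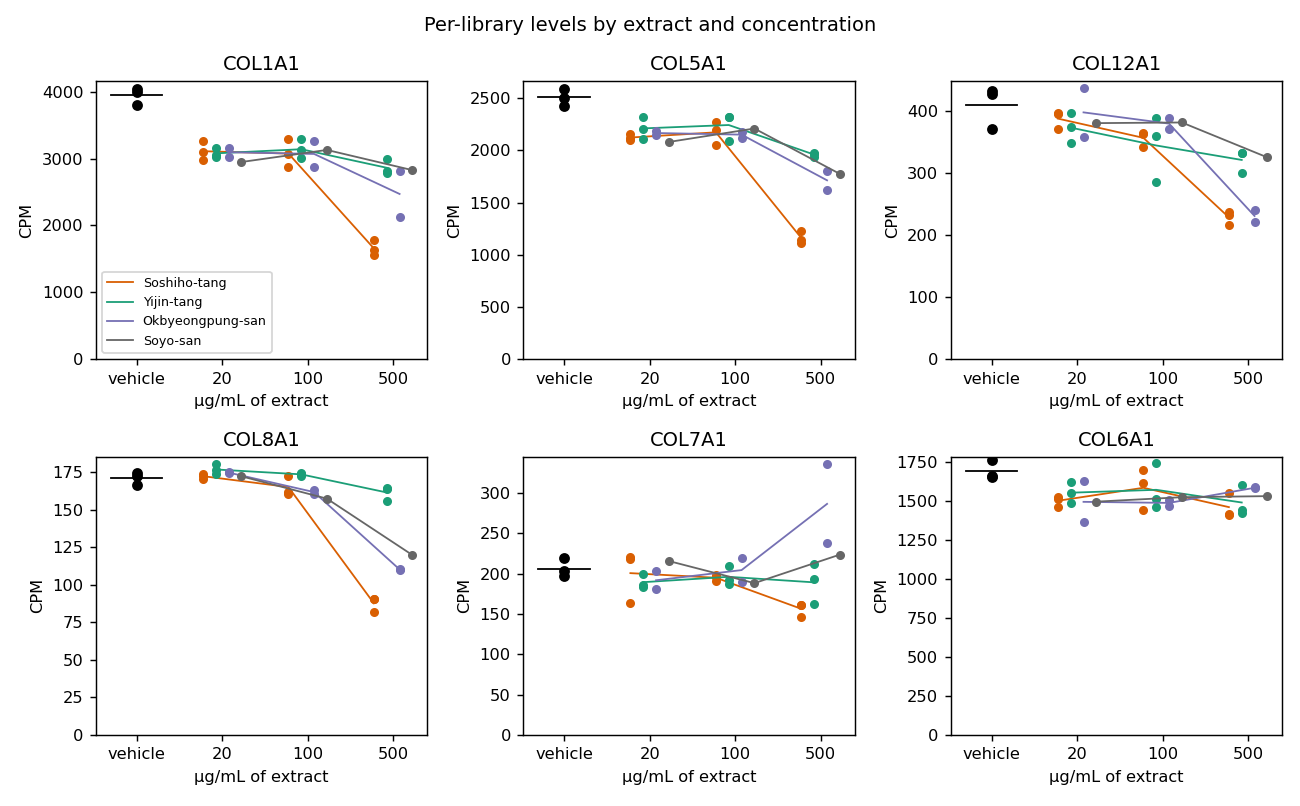
CPM of 6 collagen chains in each library by group, with points for libraries and lines for group means, each vertical axis starting at 0. COL1A1, COL5A1, COL12A1 and COL8A1 have their lowest group mean at 500 µg/mL Soshiho-tang, COL6A1 stays between 1360 and 1761, and COL7A1 is highest at 500 µg/mL Okbyeongpung-san.

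COL8A1 (chromosome 3, 99638475 to 99799226, plus strand), a short-chain collagen of vessel walls and corneal membrane, had the smallest adjusted p of the 27 chains between 20 and 500 µg/mL with Soshiho-tang and with Okbyeongpung-san. It stood at 167, 175 and 173 CPM in vehicle, at 174, 173 and 170.4 at 20 µg/mL, at 173, 161 and 162 at 100 µg/mL and at 90.2, 82.1 and 90.5 at 500 µg/mL Soshiho-tang. The libraries at 20 µg/mL lay within the vehicle range, and COL8A1 fell by 0.98 ± 0.0445 to 500 µg/mL (adjusted p = 5.38e-13). With Okbyeongpung-san it held 175 and 174 CPM at 20 µg/mL, 163 and 160.4 at 100 µg/mL and 109.7 and 111 at 500 µg/mL. COL8A1 fell there by 0.67 ± 0.0669 (adjusted p = 0.000341), with ratios of -0.66 in batch D and -0.67 in batch E. With Yijin-tang its libraries held 177, 180.4 and 173 CPM at 20 µg/mL and 165, 156 and 164 at 500 µg/mL, and the change of -0.13 was not called (adjusted p = 0.0823), although DESeq2 called it (adjusted p = 0.0256). Its type VIII partner COL8A2 was not called between the doses of any extract, with 6.06 to 6.72 CPM at 20 and 6.01 to 7.19 at 500 µg/mL Soshiho-tang.

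COL7A1 (chromosome 3, 48564073 to 48595267, minus strand), the chain of anchoring fibrils, was the 1 chain that, between 20 and 500 µg/mL, fell with one extract and rose with another. It held 219, 197 and 203 CPM in vehicle. With Soshiho-tang it stood at 220.2, 219 and 163 CPM at 20 µg/mL and at 147, 161 and 161 at 500 µg/mL, a fall of 0.36 ± 0.0937 (adjusted p = 0.00554). With Okbyeongpung-san it stood at 181 and 203 CPM at 20 µg/mL, 189.6 and 219 at 100 µg/mL and 336 and 238 at 500 µg/mL. COL7A1 rose there by 0.58 ± 0.147 (adjusted p = 0.0345), but the log2 ratio was 0.89 in batch E and 0.23 in batch D. Without replicate 2 at 500 µg/mL the change was 0.30 (adjusted p = 0.174), and leaving out either library at 20 µg/mL also ended the call. The test of the difference between the extracts is given below.

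The membrane-spanning chains COL13A1 and COL17A1 fell with Soshiho-tang. COL13A1 held 20.5, 21.3 and 18.5 CPM at 20 µg/mL and 11.4, 11.7 and 12.5 at 500 µg/mL, a fall of 0.76 ± 0.0686 (adjusted p = 1.9e-08), beside 19.8, 17.4 and 19.5 in vehicle. With Okbyeongpung-san its 2 batches moved in opposite directions, from 17.4 to 22.9 CPM in batch E and from 23.1 to 19.2 in batch D. COL17A1, a hemidesmosome protein present here at a low level, held 2.74, 2.87 and 2.60 CPM at 20 µg/mL and 1.59, 1.66 and 1.96 at 500 µg/mL Soshiho-tang, a fall of 0.66 ± 0.154 (adjusted p = 0.00224). With Yijin-tang it held 2.74, 2.33 and 2.52 CPM at 20 µg/mL and 1.32, 1.39 and 1.65 at 500 µg/mL, a fall of 0.80 ± 0.161 (adjusted p = 0.00382). For Okbyeongpung-san the values were 2.65 and 2.25 CPM at 20 µg/mL and 3.65 and 3.15 at 500 µg/mL, and the change of 0.47 was not called (adjusted p = 0.189).

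Type VI chains, which assemble into beaded filaments, moved little between the doses. COL6A1 held 1522, 1461 and 1513 CPM at 20 µg/mL and 1551, 1412 and 1410 at 500 µg/mL Soshiho-tang, a change of -0.04 ± 0.0684 (adjusted p = 0.718). COL6A2 changed by 0.06 ± 0.0631 (adjusted p = 0.523). COL6A3 fell by 0.24 (adjusted p = 0.00791), a call lost without replicate 2 of either dose. The endostatin-bearing COL15A1 (0.03) and COL18A1 (-0.11) were not called. COL18A1 shares 16.43% of its exon bases with the antisense gene SLC19A1, and 36.7% of its deposited values were not whole numbers, so its counts depend on how the counting divided reads, and the strand setting is not given in the sources used here.

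With Soshiho-tang at 500 µg/mL 23 of the 27 chains fell against vehicle and 0 rose, where 21.1% of all genes tested fell and 22.8% rose. The median was -0.55 against 0.006 over all genes. All 8 fibrillar chains fell, from COL3A1 (-1.27), COL1A1 (-1.25), COL1A2 (-1.22) and COL5A1 (-1.11) to COL27A1 (-0.25), as did 4 of 5 basement membrane chains, 3 of 4 FACITs and 8 of the 10 others. COL16A1 (-0.16), COL6A2 (-0.14), COL4A4 (-0.62) and COL8A2 (0.08) were not called. DESeq2 called COL6A2 (adjusted p = 0.0434), and COL4A4 was called without replicate 1 at 500 µg/mL (-0.90, adjusted p = 0.0214). COL5A3, COL27A1 and COL6A1 (-0.21) lost their call in some leave-one-out fits.

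At the lower doses fewer chains differed from vehicle. At 100 µg/mL Soshiho-tang 12 chains were lower and 1 higher, where 10.2% of all genes were lower and 10.8% higher; without replicate 2 of that dose 8 chains were called. At 20 µg/mL 10 were lower and 1 higher, where 10.5% of all genes were lower and 11.3% higher, and the count fell to 7 without vehicle replicate 1 and to 5 without replicate 3 of that dose. COL1A1 fell by 0.34 ± 0.0582 at 20 µg/mL (adjusted p = 0.000331) and COL15A1, at 8.85 to 10.2 against 12.7 to 13.5 CPM, fell by 0.45 (adjusted p = 0.00123). COL11A1 was the chain on the higher side at both doses.

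Yijin-tang was compared with the same vehicle libraries, so its results share them. At 500 µg/mL 16 chains fell and 2 rose, where 15.2% of all genes fell and 16% rose. COL3A1 (-0.60), COL1A2 (-0.49), COL1A1 (-0.46) and COL17A1 (-1.04) were among those that fell, and COL11A1 (0.21) and COL5A2 (0.15) rose. The COL11A1 call was lost without vehicle replicate 1 (adjusted p = 0.0767), and that of COL5A2 without replicate 1 at 500 µg/mL (adjusted p = 0.0524) or with no filter on low counts (adjusted p = 0.0566). At 100 µg/mL 13 fell and 1 rose, where 12.5% of all genes fell and 13.1% rose, and leaving out replicate 1 of that dose lowered the count to 9. At 20 µg/mL 10 fell and 3 rose (COL11A1 by 0.30, COL13A1 by 0.22 and COL5A2 by 0.12), where 9.2% of all genes fell and 10.6% rose, and the count was 8 without vehicle replicate 2 and 7 without replicate 3 of that dose. COL1A1 was 0.36 lower at 20 µg/mL (adjusted p = 0.00028).

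With Okbyeongpung-san at 500 µg/mL 11 chains fell and 1 rose against the same vehicle libraries, where 11.4% of all genes fell and 13.3% rose. COL12A1 (-0.82), COL3A1 (-0.70), COL14A1 (-0.66), COL1A1 (-0.66), COL8A1 (-0.62), COL5A1 (-0.54) and COL1A2 (-0.50) fell most. COL7A1 rose by 0.49 (adjusted p = 0.0238), a call lost without vehicle replicate 2 or 3 or without replicate 2 at 500 µg/mL, where the value was 0.20 (adjusted p = 0.248). COL11A1 (-0.42) and COL5A2 (-0.25) lost theirs without vehicle replicate 2 or 3 or without replicate 3 at 500 µg/mL. At 100 µg/mL edgeR called 0 chains, where 3.66% of all genes were called in either direction; 9 chains had an unadjusted p under 0.05 and DESeq2 called 2. At 20 µg/mL edgeR again called 0, where 2.24% of all genes were called; 7 chains had an unadjusted p under 0.05 and DESeq2 called 2. At 20 µg/mL COL1A1 stood 0.33 below vehicle (adjusted p = 0.121).

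**Figure D4:**
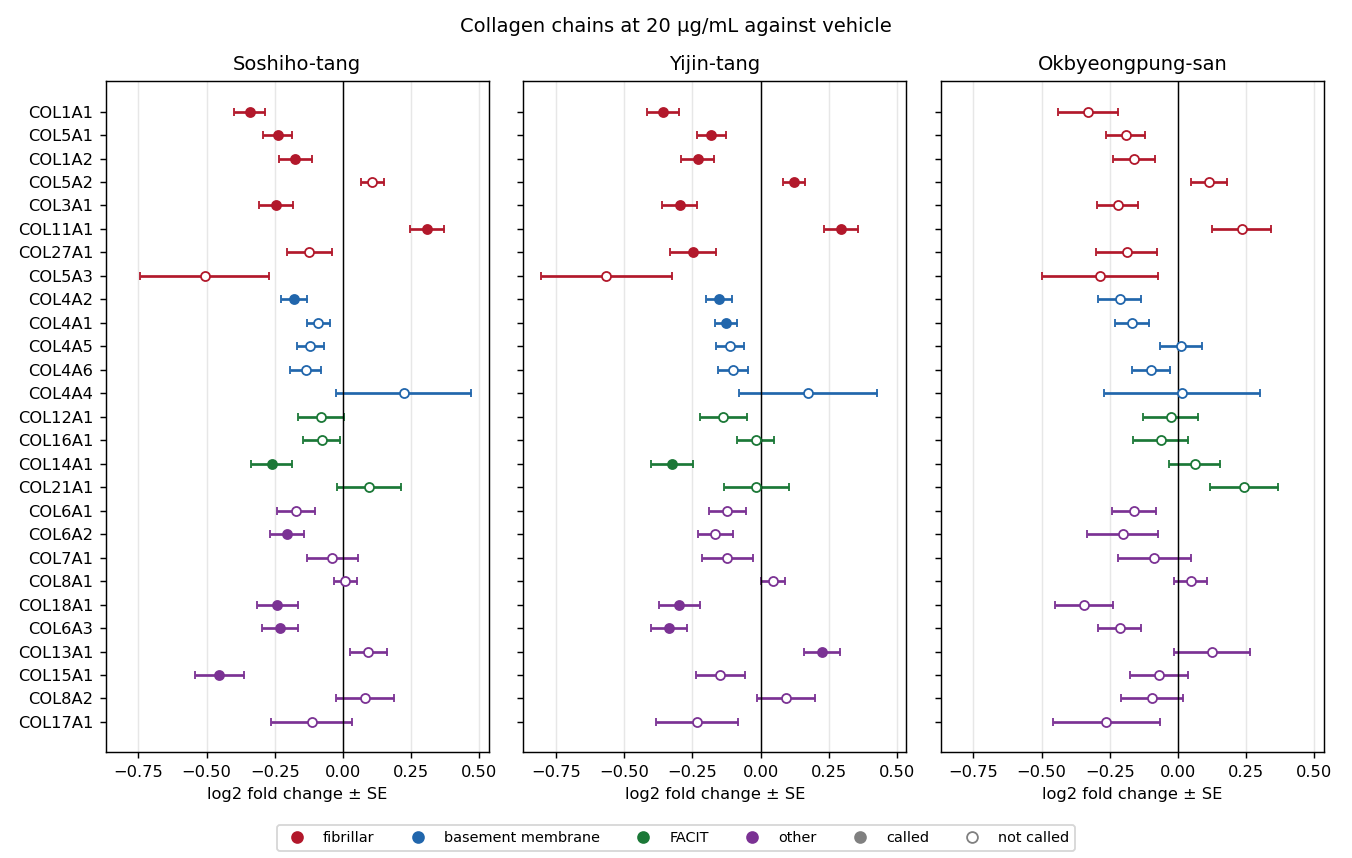
log2 fold change ± SE of the 27 collagen chains at 20 µg/mL against vehicle for Soshiho-tang, Yijin-tang and Okbyeongpung-san, which share the vehicle libraries, with filled points called at an adjusted p under 0.05. COL1A1 lies near -0.34 in all 3 panels and COL11A1 is above 0, and no point is filled for Okbyeongpung-san.

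Soshiho-tang and Yijin-tang, both with 3 libraries per dose in batch E, were compared directly. At 500 µg/mL 15 chains were lower and 1 higher with Soshiho-tang, where 12.8% of all genes were lower and 12.5% higher. COL8A1 was lower by 0.88 ± 0.0445 (adjusted p = 2.21e-12), COL1A1 by 0.79 and COL13A1 by 0.78, and COL8A2 was higher by 0.29 (adjusted p = 0.0472), a call lost under some alternatives. By class, 6 of 8 fibrillar, 4 of 5 basement membrane and 2 of 4 FACIT chains were lower. At 100 µg/mL no chain was called, where 0.753% of all genes were, with 3 chains at an unadjusted p under 0.05. At 20 µg/mL no chain was called either, where 0.13% of all genes were, with 1 chain at such a p.

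The change from 20 to 500 µg/mL itself differed between these extracts for 12 chains, all more negative with Soshiho-tang, where 6.99% of all genes were called in that direction. They comprise 6 fibrillar chains, 3 basement membrane chains, COL12A1, COL8A1 and COL13A1. The difference was -0.84 ± 0.0622 for COL8A1 (adjusted p = 3.97e-09), -0.80 ± 0.0824 for COL1A1 (adjusted p = 4.73e-07) and -0.25 ± 0.0794 for COL4A6 (adjusted p = 0.0406).

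Between Okbyeongpung-san and Soshiho-tang the dose change differed for 13 chains, all on the higher side with Okbyeongpung-san, where 4.25% of all genes were called in that direction. COL17A1 had a difference of 1.14 ± 0.238 (adjusted p = 0.00361), COL7A1 of 0.94 ± 0.178 (adjusted p = 0.00147), COL13A1 of 0.81 ± 0.146 (adjusted p = 0.000919) and COL1A2 of 0.71 ± 0.104 (adjusted p = 8.93e-05). COL12A1 (-0.02, adjusted p = 0.956) and COL11A1 (0.08, adjusted p = 0.772) were not called. Without replicate 2 of Okbyeongpung-san at 500 µg/mL 8 chains were called.

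Soyo-san has 1 library per dose, all in batch D, so there is no replicate check and no test. The vehicle libraries are all of batch E, so batch and treatment cannot be told apart where Soyo-san is set against vehicle. On the scale of log2(CPM + 1), the median of the 27 chains was -0.18 at 500 µg/mL against the vehicle mean, beside 0.0006 over all genes, and -0.0816 where CPM was not scaled by TMM. COL8A1 went from 172 CPM at 20 µg/mL to 157 at 100 and 119.8 at 500 µg/mL, COL13A1 from 20.3 to 17.7 and 14.9, and COL17A1 from 2.47 to 2.56 and 1.33. COL8A1 differed by -0.52, COL13A1 by -0.43 and COL17A1 by -0.57 between 500 and 20 µg/mL. COL1A1 was at 2949, 3130 and 2827 CPM at the rising doses.

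As a share of each library, the 44 chains took 1.31 to 1.37% in vehicle, 1.15 to 1.26% at 20 µg/mL and 0.821 to 0.867% at 500 µg/mL Soshiho-tang. The share at 500 µg/mL was 1.10 to 1.17% with Yijin-tang, 1.12 and 1.01% with Okbyeongpung-san (batch E, then D) and 1.14% with Soyo-san. Relative to the vehicle mean these are ratios of 0.628 for Soshiho-tang, 0.842 for Yijin-tang and 0.790 for Okbyeongpung-san. Soshiho-tang at 500 µg/mL thus had the lowest shares of any library. The type V ratio also moved: COL5A1 to COL5A2 per kb was 5.24 to 5.42 in vehicle, 4.11 to 4.32 at 20 and 3.41 to 3.81 at 500 µg/mL Soshiho-tang, and 4.02 to 4.57 and 3.69 to 3.88 at these doses of Yijin-tang. With Okbyeongpung-san it was 4.19 and 4.46 at 20 µg/mL and 4.46 and 4.28 at 500 µg/mL, so the doses overlapped.

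**Figure D5:**
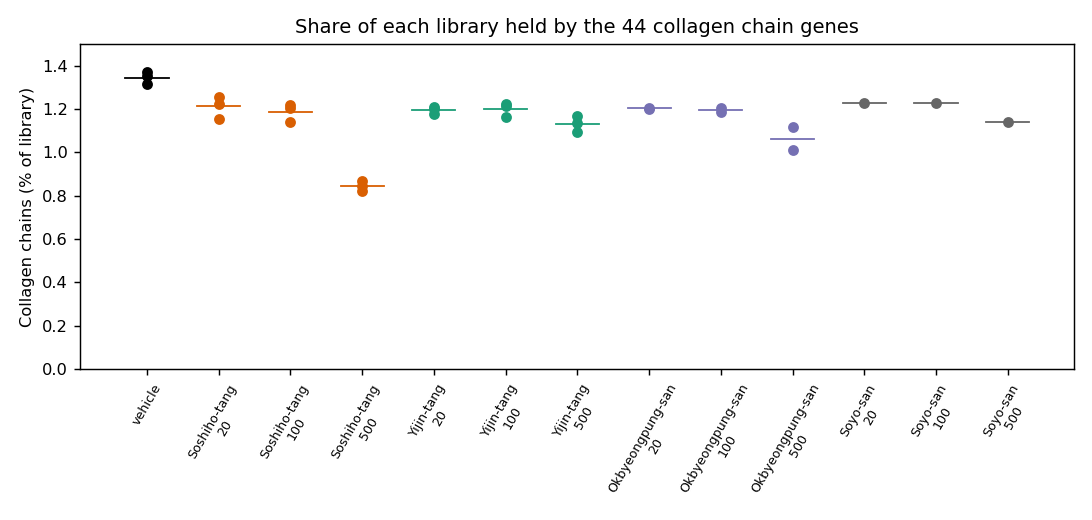
Share of each library's counts, in percent, held by the 44 collagen chain genes, with points for libraries, a line for each group mean and an axis from 0. The 3 libraries at 500 µg/mL Soshiho-tang lie at 0.821 to 0.867% and every other library at 1.01% or above.

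Genes that make, cut, bind or sense collagen were read from 7 lists, and the counts are to be read against the shares of all genes. Between 20 and 500 µg/mL these were 14.2% lower and 14.6% higher with Soshiho-tang and 2.94% and 2.7% with Yijin-tang. With Okbyeongpung-san they were 5.1% and 5.21%. Against vehicle at 500 µg/mL Soshiho-tang 21.1% fell and 22.8% rose. A single gene called in a list is not read as a result about that list. Of 19 genes of procollagen folding and hydroxylation, 7 fell and 0 rose between 20 and 500 µg/mL Soshiho-tang, and 13 fell and 1 rose against vehicle at 500 µg/mL. P4HA1, a prolyl 4-hydroxylase subunit, fell by 0.87 and PLOD2, a lysyl hydroxylase, by 0.59 against vehicle, while the values of -0.07 and 0.08 with Yijin-tang were not called. Of 12 genes of procollagen cleavage and crosslinking that were tested, 8 fell and 0 rose between the doses, and 9 fell and 1 rose against vehicle. ADAMTS2, which removes the amino-terminal propeptide, fell by 0.73 and LOXL1, a lysyl oxidase family enzyme, by 0.57 against vehicle, and with Yijin-tang by 0.28 and 0.31. PCOLCE2 of the same list rose against vehicle at 500 µg/mL by 0.25 with Soshiho-tang, 0.28 with Yijin-tang and 0.60 with Okbyeongpung-san. In the same comparison of the doses with Yijin-tang, 0 fell and 1 rose in the first list and 4 fell in the second, and with Okbyeongpung-san 0 fell and 1 rose, and 1 fell.

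Collagen receptors split in direction: of 8 tested, 5 fell and 2 rose between 20 and 500 µg/mL Soshiho-tang, where 14.2% of all genes fell and 14.6% rose. With Yijin-tang 2 of them fell, where 2.94% of all genes did, and with Okbyeongpung-san 1 rose, where 5.21% did. ITGA11, the alpha subunit of a fibrillar collagen integrin, fell against vehicle at 500 µg/mL by 0.75 with Soshiho-tang, 0.69 with Yijin-tang and 0.36 with Okbyeongpung-san, and ITGA2 rose by 0.85 with Okbyeongpung-san. Of 6 collagen-degrading proteases, 1 fell and 3 rose between the doses of Soshiho-tang, 1 fell with Yijin-tang, and 1 fell and 2 rose with Okbyeongpung-san. MMP1, the interstitial collagenase, rose against vehicle by 0.55 with Soshiho-tang, 0.35 with Yijin-tang and 0.90 with Okbyeongpung-san, whereas MMP2, a gelatinase, fell by 0.58, 0.26 and 0.26.

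Of 7 fibril-binding genes 5 fell and 0 rose between the doses of Soshiho-tang, where 14.2% of all genes fell and 14.6% rose. With Yijin-tang 1 of them fell, where 2.94% of all genes did, and with Okbyeongpung-san 2 fell, where 5.1% did. SPARC, a collagen-binding glycoprotein, fell by 0.59 and FN1, fibronectin, by 0.58 against vehicle at 500 µg/mL Soshiho-tang, and by 0.20 and 0.34 with Yijin-tang. Of 14 basement membrane partners 7 fell and 3 rose with Soshiho-tang, 0 were called with Yijin-tang, and 1 fell and 1 rose with Okbyeongpung-san. The laminin chains went both ways against vehicle, with LAMA5 at -0.97 and LAMA1 at 0.64, and HSPG2, perlecan, fell by 0.86 with Soshiho-tang. With Yijin-tang these values were -0.64, -0.23 and -0.40, all called. Of 12 genes that feed transforming growth factor beta signals into collagen transcription, 8 fell and 1 rose between the doses of Soshiho-tang, 2 fell and 1 rose with Yijin-tang and 2 fell with Okbyeongpung-san. TGFB3, a ligand, fell by 1.31 and CTGF, a target of the pathway, by 0.88 against vehicle at 500 µg/mL Soshiho-tang. At that dose they fell by 0.46 and 0.47 with Yijin-tang and by 0.65 and 0.34 with Okbyeongpung-san. TGFBR1, a receptor, rose against vehicle at 500 µg/mL by 0.26 with Soshiho-tang, 0.45 with Yijin-tang and 0.55 with Okbyeongpung-san. Of the 12 genes, 8 fell and 2 rose against vehicle at 500 µg/mL Soshiho-tang, where 21.1% of all genes fell and 22.8% rose.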

How the data were processed

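RNA of SW1783 cells was sequenced from 30 libraries with a directional MGI kit and paired ends of 100 bases, per the labels' protocols. The authors deposited estimated counts per Ensembl gene. FastQC 0.11.9, Trim Galore 0.6.5, STAR 2.7.3a, RSEM 1.3.3 and hg38 (GRCh38) are named in the submitters' processing notes, and the annotation release and strand setting are not given in the sources used here. Of the deposited values 9.67% were not whole, and all were rounded. Gene names, positions and exon lengths were taken from GENCODE v29, which matched 57055 of the 60675 entries.

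Differences were tested with edgeR 4.0.16 (R 4.3.3, limma 3.58.1) by the quasi-likelihood F test with TMM scaling. Genes were filtered by filterByExpr (minimum count 10, minimum total 15) and p-values were adjusted over all genes tested. Vehicle, Soshiho-tang and Yijin-tang shared a fit of 21 libraries and 16872 genes. Okbyeongpung-san and vehicle shared one of 9 libraries and 16643 genes, and the comparison of Okbyeongpung-san with Soshiho-tang, added after their values had been seen, used 27 libraries and 17396 genes. CPM values use TMM scaling over all 30 libraries. For Soyo-san log2(CPM + 1) was compared without a test. Precision is lowest for the chains near 1 CPM.

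Every chain reaching 1 CPM is named, lower chains are given by their highest group mean, and each list gives up to 3 called genes with the lowest adjusted p at 500 µg/mL against vehicle for Soshiho-tang or Okbyeongpung-san. Members, classes and lists were chosen with earlier results of these data known. The scripts were tested on simulated counts. Replicate numbers of Okbyeongpung-san follow the batch letters in the titles. The deviations of same-numbered Okbyeongpung-san libraries correlated at 0.158 (500 and 20 µg/mL) and 0.431 (100 and 20 µg/mL). Differently numbered libraries gave -0.158 and -0.431, the same values with the sign reversed, so each comparison holds a single value. Soshiho-tang replicate 1 and Yijin-tang replicate 3 at 500 µg/mL, which differ in number, correlated at 0.22. These values therefore cannot decide whether the numbers pair the libraries beyond the batch letters. By its titles Okbyeongpung-san has 1 library of each dose in each batch, and the main tests had no term for batch. Alternatives were RLE size factors, no filter, DESeq2 1.42.0, a replicate block, one fit of 27 libraries, and leaving out each library. The replicate block grouped libraries by number, so vehicle replicate 3, of batch E, was grouped with Okbyeongpung-san libraries of batch D. No fit with a term for batch itself was run.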

Additional observations from a re-analysis of the deposited data

Results flagged for a closer look

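The change from 20 to 500 µg/mL differed between extracts for some collagen chains in a test of the difference itself, the interaction term of the edgeR fit, and these chains are listed with the log2 difference ± SE. For Soshiho-tang minus Yijin-tang the values were COL8A1 -0.84 ± 0.0622, COL1A1 -0.80 ± 0.0824, COL1A2 -0.79 ± 0.0857, COL3A1 -0.72 ± 0.0921, COL5A1 -0.70 ± 0.0753, COL5A2 -0.68 ± 0.0594, COL13A1 -0.65 ± 0.0947, COL11A1 -0.64 ± 0.0883, COL4A5 -0.57 ± 0.0716, COL12A1 -0.54 ± 0.12, COL4A1 -0.30 ± 0.0572 and COL4A6 -0.25 ± 0.0794. Adjusted p-values ran from 3.97e-09 for COL8A1 to 0.0406 for COL4A6.

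For Okbyeongpung-san minus Soshiho-tang the values were COL17A1 1.14 ± 0.238, COL7A1 0.94 ± 0.178, COL13A1 0.81 ± 0.146, COL1A2 0.71 ± 0.104, COL1A1 0.59 ± 0.123, COL3A1 0.55 ± 0.104, COL5A1 0.54 ± 0.0881, COL4A5 0.47 ± 0.0913, COL18A1 0.46 ± 0.136, COL6A3 0.40 ± 0.109, COL8A1 0.31 ± 0.069, COL5A2 0.30 ± 0.07 and COL4A1 0.25 ± 0.066. Adjusted p-values ran from 8.93e-05 for COL1A2 to 0.0398 for COL18A1. COL13A1 moved in opposite directions in the 2 batches of Okbyeongpung-san, by 0.39 log2 in batch E and -0.27 in batch D, and COL7A1 moved by 0.89 and 0.23. COL17A1 moved by 0.46 in batch E and 0.48 in batch D. Soshiho-tang has libraries of batch E only, so the part of batch in these differences was not tested beyond those values. The prefix of the library names also differs between these extracts in both batches, and its part was not tested.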

How the results depend on the processing

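For single chains, alternatives were run in the comparisons of 500 µg/mL with vehicle and with 20 µg/mL and of Soshiho-tang with Yijin-tang at 500 µg/mL, and in these no called chain changed direction. At 500 µg/mL, calls held under all alternatives for 20 of 23 chains against vehicle and 16 of 19 against 20 µg/mL with Soshiho-tang, for 11 of 18 and 2 of 4 with Yijin-tang, and for 8 of 12 and 4 of 9 with Okbyeongpung-san. In the direct comparison of Soshiho-tang with Yijin-tang at 500 µg/mL 12 of 16 were kept. For Okbyeongpung-san against vehicle edgeR called 0 chains at 100 µg/mL, against 3 with no filter on low counts, 2 with DESeq2 and 7 in the fit of 27 libraries; at 20 µg/mL 0 became 2, 2 and 7. The cause was not tested. COL1A1 between 20 and 500 µg/mL Okbyeongpung-san, not called, was called with no filter, in the fit of 27 libraries and without replicate 2 at 500 µg/mL, and COL18A1 and COL21A1 there were called with no filter and in that fit. Other chains gained a call in some setting: COL12A1, COL5A1, COL8A1 and COL8A2 for Yijin-tang at 500 against 20 µg/mL, COL5A3 and COL8A2 for it against vehicle, COL6A2 and COL4A4 for Soshiho-tang at 500 µg/mL against vehicle, COL18A1 for it against 20 µg/mL, COL15A1 for Soshiho-tang against Yijin-tang, and COL6A2 for Okbyeongpung-san against vehicle. With CPM not scaled by TMM the Soyo-san medians against vehicle were -0.0816 at 500, -0.0805 at 100 and -0.0172 at 20 µg/mL. Without mitochondrial genes in the total, the collagen share at 500 µg/mL Soshiho-tang was 0.606 of vehicle. With a replicate block 9 chains were called for Okbyeongpung-san at 500 against 20 µg/mL, 11 against vehicle, and 19 and 23 for Soshiho-tang; the block moved no count of calls by over 1.5 times. Samples of Soshiho-tang, Yijin-tang and vehicle share only a replicate number. Leaving out 1 library in turn gave these ranges of called chains. Against vehicle, Soshiho-tang gave 21 to 23 at 500, 8 to 12 at 100 and 5 to 10 at 20 µg/mL, Yijin-tang 14 to 17, 9 to 12 and 7 to 10, and Okbyeongpung-san 8 to 11, 0 to 0 and 0 to 0. Between 500 and 20 µg/mL the ranges were 17 to 20, 2 to 4 and 4 to 9, and between 100 and 20 µg/mL 0 to 0 for each extract. Soshiho-tang against Yijin-tang gave 12 to 14 at 500, 0 to 1 at 100 and 0 to 0 at 20 µg/mL. The difference of dose changes gave 11 to 14 for Soshiho-tang and Yijin-tang and 8 to 14 for Okbyeongpung-san and Soshiho-tang. Depth limits COL4A4, COL5A3 and COL17A1, whose SEs are the widest.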
